A study of Mus musculus with 6 samples.

Results

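The Hox genes are the homeobox genes of 4 chromosomal clusters, and their transcripts were followed here across 6 RNA-seq libraries of wild-type MEFs. These mouse embryonic fibroblasts are uncloned cells taken into culture from embryos. Members were all rows annotated as protein coding with a symbol made of Hoxa, Hoxb, Hoxc or Hoxd and a paralog number, which gave 39 genes of 55487 rows. HoxA on chromosome 6 had 11 members, HoxB on chromosome 11 had 10, HoxC on chromosome 15 had 9 and HoxD on chromosome 2 had 9.

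The libraries were labelled as passage 6 (P6), senescent, and passage 1 (P1), non-senescent, where a passage is counted each time the cells are split and replated. The cells of each passage had received α-amyrin (20 µM, 3 days), β-amyrin (20 µM, 3 days) or vehicle, with 1 library for each. All 6 libraries shared the wild-type genotype, a serum-containing medium and poly(A) selection. No condition had a replicate, and the labels name neither embryo part, embryonic age nor whether the P6 cells came from the isolate of the P1 cells, so that passage and isolate cannot be told apart. MEFs are a mixture of cell types, and in bulk RNA fewer cells of a type and less RNA per cell cannot be told apart.

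Hox proteins are DNA-binding transcription factors that give cells along the body axis and the limbs their regional identity. Within a cluster, genes at the 3′ end (low paralog numbers) are used in anterior regions and genes at the 5′ end (high paralog numbers) in posterior and distal regions. Fibroblasts taken from different body sites keep different combinations of Hox transcripts in culture. Polycomb repression and Trithorax activation hold these combinations, and Pbx, Meis and Pknox proteins of the TALE class bind DNA together with Hox proteins.

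Among the Hox genes called between P6 and P1, the direction followed the cluster. All 6 tested HoxD genes and 4 of 11 HoxA genes were called higher at P6, while 5 of 8 HoxB genes and 4 of 9 HoxC genes were called lower. No HoxA or HoxD gene was called lower and no HoxB or HoxC gene was called higher. Passage differences were common in these libraries: over all tested genes 30.0% were called higher at P6 and 29.1% lower, or 59.2% in either direction, so the share of tested Hox genes called, 55.9%, was near the background. The direction by cluster is a description and has no test of its own. The largest increase was that of Hoxd10, with 6.77 ± 1.42 CPM (counts relative to the scaled library total) at P6 and 3.25 ± 0.286 CPM at P1 (SD over 3 libraries of different treatment), and the largest decrease that of Hoxc12, which had 1 to 3 counts per library at P6. Neither amyrin gave a call for any Hox gene.

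The start-site sequences of 4 called genes are printed as examples, 3 from HoxD (higher at P6) and 1 from HoxB (lower at P6). Each is the 250 bases before a RefSeq start site (build GRCm38.p6), given 5′ to 3′ on the plus strand, which is the gene's strand. Capitals mark the letters of 4 motifs, searched on both strands. TATAAA is the TATA box at which the basal machinery assembles. CCAAT is the box named for its letters and bound by the factor NF-Y. GGGCGG is the GC box bound by Sp proteins. TGATNNAT is a type of site that PBX and HOX proteins bind together. Neighbouring or overlapping matches run together.
Hoxd13, chr2:74667975-74668224: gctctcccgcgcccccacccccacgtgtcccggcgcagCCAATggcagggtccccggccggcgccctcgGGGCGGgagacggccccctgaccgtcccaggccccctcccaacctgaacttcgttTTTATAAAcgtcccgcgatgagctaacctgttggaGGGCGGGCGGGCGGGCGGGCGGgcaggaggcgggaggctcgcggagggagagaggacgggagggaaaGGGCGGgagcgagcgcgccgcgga
Hoxd12, chr2:74674763-74675012: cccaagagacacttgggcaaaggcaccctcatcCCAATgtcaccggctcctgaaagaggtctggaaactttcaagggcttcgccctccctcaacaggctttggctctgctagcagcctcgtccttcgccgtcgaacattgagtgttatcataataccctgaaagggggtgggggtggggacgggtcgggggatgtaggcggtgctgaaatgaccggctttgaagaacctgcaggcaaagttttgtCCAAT
Hoxd10, chr2:74691641-74691890: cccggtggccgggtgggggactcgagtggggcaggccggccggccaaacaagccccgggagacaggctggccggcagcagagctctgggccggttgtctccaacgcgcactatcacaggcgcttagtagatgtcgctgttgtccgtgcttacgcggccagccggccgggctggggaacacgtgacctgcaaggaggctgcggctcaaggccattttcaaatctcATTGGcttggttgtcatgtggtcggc
Hoxb4, chr11:96318017-96318266: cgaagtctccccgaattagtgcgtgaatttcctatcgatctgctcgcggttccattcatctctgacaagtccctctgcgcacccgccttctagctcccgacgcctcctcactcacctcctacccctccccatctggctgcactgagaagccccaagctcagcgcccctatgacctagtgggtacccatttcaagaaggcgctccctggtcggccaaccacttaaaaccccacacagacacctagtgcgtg

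Hoxd13 held all but the PBX and HOX site, Hoxd12 and Hoxd10 held the CCAAT box only, and Hoxb4 held none of the 4 motifs. The windows not printed did not divide in this way. Among HoxD genes called higher, Hoxd8 held CCAAT, Hoxd9 lacked it, and both windows of Hoxd11 lacked it. In HoxB, Hoxb8 (not called) held all 4 motifs and Hoxb1 (not tested) held CCAAT. Hoxb4 was the only called HoxB gene with a window. RefSeq start windows matched 22 of the 39 genes, with 24 windows. Of these windows 14 (58.3%) held CCAAT, against 33.8% of all 32851 windows of the same length, and 10 (41.7%) held GGGCGG, against 32.7%. TATAAA was in 4 (16.7%), against 12.4%, and TGATNNAT was in 4 (16.7%), against 7.68%. The median window had 12.5 CpG dinucleotides in the Hox set and 6.0 over all windows. These matches describe the letters of the windows and no binding was measured.

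The clusters also hold microRNA genes whose seeds, bases 2 to 8, match some Hox transcripts. The mature RNAs were not measured, because the libraries were made from poly(A) RNA. Their RefSeq sequences are shown because the seed is the basis of the count that follows, with the seed in capitals. The miR-196 pair comes from HoxB and HoxC (196a) and HoxA (196b), and the miR-10 pair from HoxB (10a) and HoxD (10b).
mmu-miR-196a-5p: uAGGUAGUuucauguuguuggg
mmu-miR-196b-5p: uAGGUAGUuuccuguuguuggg
mmu-miR-10a-5p: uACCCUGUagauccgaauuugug
mmu-miR-10b-5p: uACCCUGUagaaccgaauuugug

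The miR-196 seed match, ACTACCT, lay in the annotated 3′ untranslated region of 9 of 39 Hox genes (23.1%) and of 6.61% of 20846 genes in the annotation. Of the 9, Hoxa7 and Hoxa9 were called higher at P6, Hoxb6 was called lower, and Hoxb1 was not tested. The remaining 5, Hoxa5 and Hoxc8 among them, were not called. The miR-10 seed match, ACAGGGT, lay in 4 of 39 Hox genes (10.3%) and in 13.3% of all genes. Outside perfect seeds, a stretch of Hoxb8, a well-known cleavage target of miR-196 in the mouse, paired with 21 of the 22 bases of miR-196a. It is shown with complementary bases in capitals.
Hoxb8, chr11:96284888-96284909, plus strand: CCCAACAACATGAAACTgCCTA

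The deposited row named Mir196a-1, a gene within HoxB, had 1.54 CPM, 1.59 CPM and 1.44 CPM in the P6 α-amyrin, β-amyrin and vehicle libraries, against 1.05 CPM, 1.01 CPM and 1.76 CPM in the P1 α-amyrin, β-amyrin and vehicle libraries. The passages overlapped, and the row was not called (log2 change 0.28 ± 0.27 SE, edgeR adjusted p = 0.413). Hoxb8 had 9.03 CPM, 9.23 CPM and 10.5 CPM at P6 with α-amyrin, β-amyrin and vehicle, against 10.6 CPM, 10.5 CPM and 10.4 CPM at P1 in the same order. Its ranges overlapped and it was not called.

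Counts were deep enough for most members. Total counts per library ran from 18798418 to 28752332, and Hox genes took 6676 to 10944 of them, or 0.0355% to 0.0383%. That share was 0.0355%, 0.0357% and 0.0383% at P6 (α-amyrin, β-amyrin, vehicle) and 0.0381%, 0.0376% and 0.0368% at P1, so the totals of the passages overlapped while the make-up moved. Genes were tested with edgeR (quasi-likelihood F test) on the deposited counts, with treatment and passage as additive terms over all 6 libraries. The fit covered 16962 genes, with a call at a Benjamini-Hochberg adjusted p below 0.05. In all, 34 of the 39 Hox genes passed the filter on low counts. The spread came from the 2 residual degrees of freedom that additivity leaves, so p-values measure only the spread among these libraries.

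In that fit 10 Hox genes were higher at P6 and 9 were lower, and 15 were not called. At an unadjusted p below 0.05 there were 21, against 63.6% of all genes. The median log2 change was 0.02 over the Hox genes and 0.00 over all tested genes. The 3 P6 libraries lay above all 3 P1 libraries for 14 Hox genes and below them for 9, and 11 overlapped. Over all genes 32.5% lay wholly above and 32.2% wholly below. All 19 called Hox genes moved the same way in each of the 3 pairs of P6 and P1 libraries with the same treatment, as did 26 of the 34 tested. The calls rest on how well these same pairs match, so this is no separate support for them. A share over all genes is not given for it. Of the 19, 13 were also called whichever single library was left out (2 of 4 in HoxA, 5 of 5 in HoxB, 3 of 4 in HoxC and 3 of 6 in HoxD). Without the P6 vehicle or the P1 vehicle library 5 Hox genes were called higher in place of 10, with Hoxa7, Hoxa9, Hoxd8, Hoxd9 and Hoxd13 past the threshold no longer. Calls over all genes fell as well with a library left out. They were 8534 of 17308 without the P6 vehicle and 8503 of 17341 without the P1 vehicle library, against 10034 of 16962 in the full fit. The loss of calls was therefore not limited to Hox genes.

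**Figure D1:**
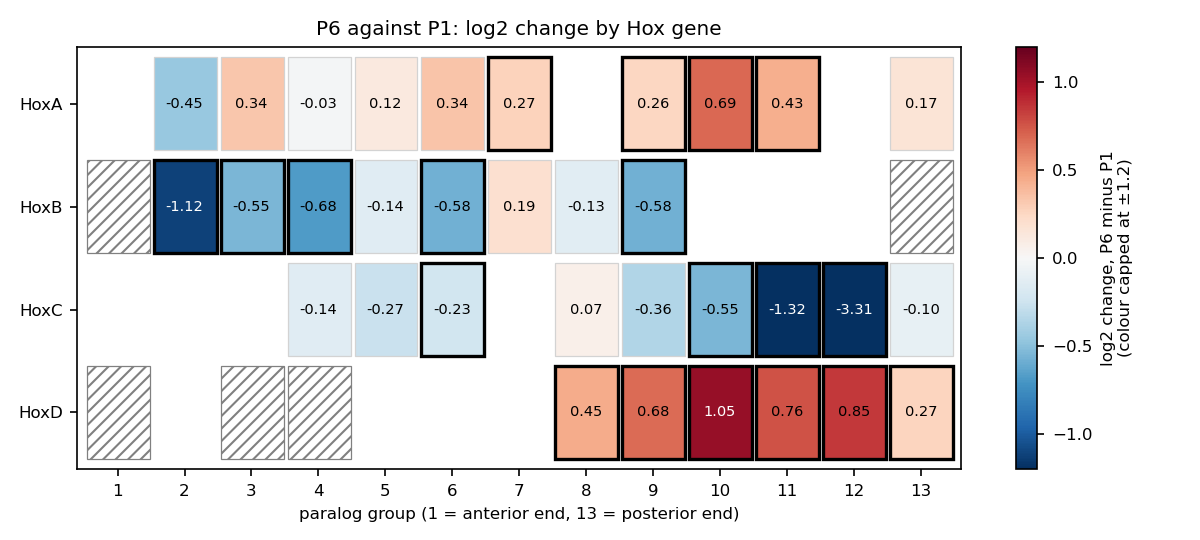
Log2 change at P6 over P1 (edgeR) by Hox gene, with clusters in rows and paralog groups in columns. Thick frames mark genes called at adjusted p below 0.05, hatched boxes mark the 5 genes with too few counts to test, and an empty place has no gene or one not reported here. The 6 tested HoxD genes ran from 0.27 to 1.05, and the 5 called HoxB genes from -1.12 to -0.55.

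HoxD showed the most uniform pattern. Its 6 tested genes are Hoxd8 to Hoxd13, the 5′ genes that pattern the lower trunk, the limb and, for Hoxd13, the digits and the genital tubercle. Their median log2 change was 0.72. Hoxd13, at chr2:74668310-74671599 on the plus strand, was the most abundant Hox transcript per kilobase of exon at P6. It had 39.7 CPM, 37.1 CPM and 41.2 CPM at P6 with α-amyrin, β-amyrin and vehicle, against 33.0 CPM, 33.6 CPM and 31.4 CPM at P1. Every P6 library lay above every P1 library, by a small margin (log2 change 0.27 ± 0.07 SE, edgeR adjusted p = 0.0123). Without the P6 vehicle, P1 vehicle or P1 α-amyrin library the adjusted p was 0.0837, 0.0819 or 0.0524.

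Hoxd10 at chr2:74691924-74695105, a gene of lumbar and limb regions, had the largest change of the cluster. It had 5.57 CPM, 6.41 CPM and 8.33 CPM at P6 with α-amyrin, β-amyrin and vehicle, against 2.96 CPM, 3.26 CPM and 3.53 CPM at P1. The groups were well apart, and the vehicle library was the highest at each passage (log2 change 1.05 ± 0.13 SE, edgeR adjusted p = 0.000558). Hoxd11, which with Hoxa11 shapes the forearm and the kidney, had 4.19 CPM, 6.49 CPM and 5.42 CPM at P6, against 2.65 CPM, 3.38 CPM and 3.41 CPM at P1. Its groups did not overlap either (0.76 ± 0.14 SE, edgeR adjusted p = 0.00311). Hoxd8, the most 3′ of the 6, had 9.66 CPM, 9.99 CPM and 10.9 CPM at P6, against 8.22 CPM, 7.28 CPM and 6.94 CPM at P1. Again no P6 value fell within the P1 range (0.45 ± 0.11 SE, edgeR adjusted p = 0.0125). Without the P6 or the P1 vehicle library the adjusted p of Hoxd8 was 0.0824 or 0.0792.

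The other two called HoxD genes were below 5 CPM in every library and are given here after their values were seen. Hoxd9 averaged 3.87 ± 0.636 CPM at P6 and 2.40 ± 0.224 CPM at P1 (SD, 3 libraries each), and Hoxd12 averaged 3.39 ± 0.314 CPM at P6 and 1.88 ± 0.184 CPM at P1. Their log2 changes were 0.68 and 0.85, with edgeR adjusted p of 0.0167 and 0.00447, and without the P6 or the P1 vehicle library that of Hoxd9 was 0.105 or 0.101. Hoxd1, Hoxd3 and Hoxd4, the anterior genes of the cluster, had 0 to 16 counts per library and were not tested. Hoxd3 and Hoxd4 share 62.3% and 52.3% of their exon length with other genes of the same strand, so counts of this pair may have been split or lost. For Hoxd11 and Hoxd10 that shared length was 10.8% and 5.73%.

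In HoxA the called genes, Hoxa7, Hoxa9, Hoxa10 and Hoxa11, were higher, as in HoxD, while Hoxa13 at the 5′ end of the cluster was not called. Hoxa10 at chr6:52231197-52240854 on the minus strand, which sets rib-free lumbar vertebrae and is needed in the uterus, led the cluster. It had 33.4 CPM, 34.9 CPM and 39.0 CPM at P6 with α-amyrin, β-amyrin and vehicle, against 21.0 CPM, 23.3 CPM and 22.4 CPM at P1. The lowest P6 library was well above the highest P1 library (log2 change 0.69 ± 0.07 SE, edgeR adjusted p = 0.000167). Hoxa11 had 15.7 CPM, 18.1 CPM and 18.1 CPM at P6, against 13.4 CPM, 12.9 CPM and 12.2 CPM at P1. Its groups did not overlap (0.43 ± 0.09 SE, edgeR adjusted p = 0.00625). The exons of Hoxa11 overlap the antisense transcript Hoxa11os over 35.0% of their length, and Hoxa11os was itself higher (0.52 ± 0.13 SE, edgeR adjusted p = 0.0124). The library kit keeps strand, but whether counting used strand is not known here, so reads of such a pair may be mixed.

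Hoxa7 and Hoxa9 changed least among the called HoxA genes. Hoxa7, a thoracic gene, had 21.1 CPM, 22.2 CPM and 21.2 CPM at P6 with α-amyrin, β-amyrin and vehicle, against 18.6 CPM, 17.6 CPM and 17.1 CPM at P1. Hoxa9, known also from blood stem cells and leukaemia, had 13.1 CPM, 11.5 CPM and 13.9 CPM at P6, against 10.6 CPM, 10.2 CPM and 11.3 CPM at P1. Neither gene overlapped between passages, with log2 changes of 0.27 and 0.26 and edgeR adjusted p of 0.0158 and 0.0351. For Hoxa9 the nearest values of the groups were 11.5 CPM and 11.3 CPM, and the adjusted p was 0.0592 to 0.142 with each library left out in turn. For Hoxa7 it passed 0.05 without the P6 or P1 β-amyrin library (0.0851 and 0.0784) and without the P6 or P1 vehicle library (0.0826 and 0.0783). Antisense transcripts covered 20.4% of the exon length of Hoxa7, and 1 of them, Hoxaas3, was also higher (0.35 ± 0.12 SE, edgeR adjusted p = 0.0367).

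The other HoxA genes were not called. Hoxa5, which patterns the neck, lung and mammary mesenchyme, had 18.1 CPM, 18.7 CPM and 19.8 CPM at P6, against 17.7 CPM, 17.7 CPM and 16.6 CPM at P1. Hoxa3, a gene of the pharyngeal arches, had 9.56 CPM, 8.79 CPM and 10.4 CPM at P6, against 7.88 CPM, 8.52 CPM and 6.44 CPM at P1. Hoxa13, a gene of the hand and foot plates, had 6.05 CPM, 6.49 CPM and 7.02 CPM at P6, against 6.05 CPM, 5.71 CPM and 5.68 CPM at P1. The P6 libraries of these 3 genes lay at or above the highest P1 library, with log2 changes of 0.12, 0.34 and 0.17, and edgeR adjusted p of 0.231, 0.0741 and 0.267 missed the threshold. Hoxa2, Hoxa4 and Hoxa6 were below 5 CPM throughout, with log2 changes of -0.45, -0.03 and 0.34. Over the 11 HoxA genes the median log2 change was 0.26.

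In HoxB the 5 called genes were lower, with a median log2 change of -0.56 over the 8 tested genes. Hoxb2 at chr11:96350525-96354012 on the plus strand, a hindbrain gene, was the most changed. It had 5.42 CPM, 6.41 CPM and 6.35 CPM at P6 with α-amyrin, β-amyrin and vehicle, against 12.0 CPM, 12.9 CPM and 14.6 CPM at P1. All 3 P6 libraries held well below the P1 libraries (log2 change -1.12 ± 0.10 SE, edgeR adjusted p = 9.14e-05). Hoxb9 at chr11:96271457-96276595, a gene of the rib-bearing trunk, was the Hox transcript with the highest level per kilobase at P1. It had 31.9 CPM, 33.5 CPM and 35.2 CPM at P6, against 48.0 CPM, 51.5 CPM and 50.3 CPM at P1. Its groups were far apart (-0.58 ± 0.06 SE, edgeR adjusted p = 0.000155).

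Hoxb3, Hoxb4 and Hoxb6 fell by similar amounts. Hoxb4, at chr11:96318267-96321638 and known for expanding blood stem cells, had 6.26 CPM, 6.72 CPM and 6.60 CPM at P6 with α-amyrin, β-amyrin and vehicle, against 10.8 CPM, 10.1 CPM and 10.5 CPM at P1. Hoxb6, a gene of lateral plate mesoderm, had 8.55 CPM, 8.32 CPM and 9.22 CPM at P6, against 13.0 CPM, 13.4 CPM and 12.6 CPM at P1. Hoxb3, a hindbrain and pharyngeal gene, had 12.7 CPM, 12.5 CPM and 12.9 CPM at P6, against 16.6 CPM, 20.1 CPM and 19.2 CPM at P1. None of the 3 overlapped between passages, and the log2 changes were -0.68, -0.58 and -0.55, with edgeR adjusted p of 0.00101, 0.00165 and 0.0017. Antisense transcripts covered 52.9% of the exon length of Hoxb3 and 27.3% of that of Hoxb2, and the antisense gene Hoxb3os fell too (-0.75 ± 0.09 SE, edgeR adjusted p = 0.000406).

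Of the rest of HoxB, Hoxb7 had 5.47 CPM, 3.54 CPM and 4.19 CPM at P6, against 4.11 CPM, 3.42 CPM and 3.91 CPM at P1. It was not called, as were Hoxb8 above and Hoxb5, which stayed below 5 CPM, and their log2 changes were 0.19, -0.13 and -0.14. Hoxb1, a hindbrain gene, had 0 counts in 5 libraries and 1 count in the other. Hoxb13, the most posterior gene of the cluster and known from the tail bud and prostate, had 0 to 6 counts. These 2 genes were not tested.

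HoxC fell at 4 genes, and the 3 largest changes lay at neighbouring posterior genes. Hoxc10 at chr15:102966796-102971893 on the plus strand, a gene of lumbar and hindlimb regions, had 9.72 CPM, 10.5 CPM and 8.80 CPM at P6 with α-amyrin, β-amyrin and vehicle, against 14.7 CPM, 14.3 CPM and 13.5 CPM at P1. The passages were apart, and 8.70% of the exon length is shared with other genes of the strand (log2 change -0.55 ± 0.09 SE, edgeR adjusted p = 0.00152). Hoxc11 and Hoxc12 were below 5 CPM and are singled out after their values were seen. Hoxc11, a hindlimb and sacral gene, averaged 0.891 ± 0.138 CPM at P6 and 2.24 ± 0.0345 CPM at P1 (SD, 3 libraries each; log2 change -1.32 ± 0.23 SE, edgeR adjusted p = 0.00214). Hoxc12 at chr15:102936757-102938609 had 1, 3 and 2 counts at P6 with α-amyrin, β-amyrin and vehicle, against 34, 22 and 20 counts at P1. Summed over libraries and scaled to the same depth, P6 held 0.0938 of the P1 level, with a 95% counting interval of 0.0334 to 0.214 (edgeR log2 change -3.31 ± 0.45 SE, adjusted p = 0.000728). Intervals of this kind cover counting error only.

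Hoxc6 had the highest level per kilobase in HoxC and is a gene of the thoracic trunk and forelimb level. It had 26.5 CPM, 23.1 CPM and 26.6 CPM at P6 with α-amyrin, β-amyrin and vehicle, against 30.1 CPM, 29.0 CPM and 30.0 CPM at P1. The passages did not overlap and the decrease was small (log2 change -0.23 ± 0.07 SE, edgeR adjusted p = 0.02). Without an α-amyrin or β-amyrin library of either passage the adjusted p was 0.051 to 0.0899. Hoxc8, which marks the brachial and thoracic trunk, had 24.9 CPM, 23.2 CPM and 24.6 CPM at P6, against 24.6 CPM, 23.4 CPM and 21.2 CPM at P1. It was not called, with a log2 change of 0.07 and a 95% interval of -0.10 to 0.25.

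Hoxc9, a thoracic gene, had 4.19 CPM, 5.73 CPM and 5.08 CPM at P6, against 6.93 CPM, 6.88 CPM and 5.56 CPM at P1. Hoxc5 had 5.36 CPM, 6.57 CPM and 6.30 CPM at P6, against 7.27 CPM, 8.72 CPM and 6.14 CPM at P1. Hoxc4, like Hoxc5 a gene of the neck and upper thorax, had 6.37 CPM, 6.49 CPM and 6.90 CPM at P6, against 7.54 CPM, 6.35 CPM and 7.98 CPM at P1. All 3 overlapped between passages and none was called, with log2 changes of -0.36, -0.27 and -0.14. Hoxc13, a gene of hair and nails at the posterior end, was not called either (-0.10). Over the 9 HoxC genes the median was -0.27.

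**Figure D2:**
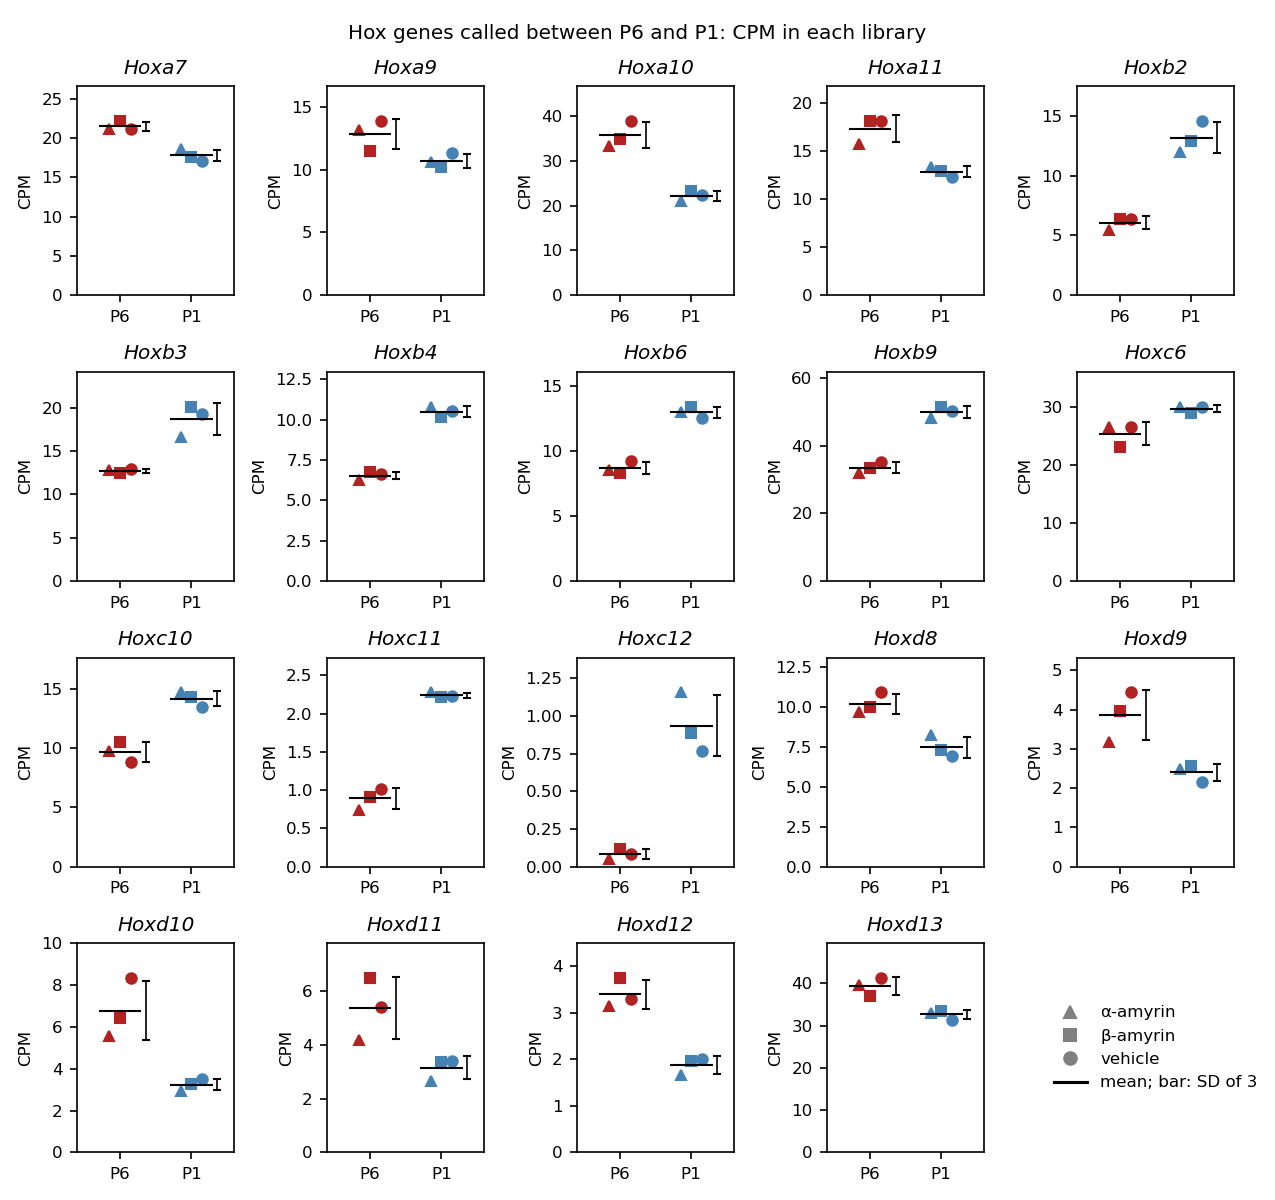
CPM of the 19 called Hox genes in each library, P6 left of P1, with symbols for treatment, a line at the mean and a bar for the SD over 3 libraries. In every panel all P6 points lie on 1 side of all P1 points.

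Genes of 1 paralog group encode similar proteins and share regions of use. In groups 9 to 12 they were called in opposite directions, along the line of the clusters. In group 10 Hoxa10 and Hoxd10 were higher at P6 and Hoxc10 was lower. In group 9 Hoxa9 and Hoxd9 were higher and Hoxb9 was lower, with Hoxc9 not called. In group 11 Hoxa11 and Hoxd11 were higher and Hoxc11 was lower, and in group 12 Hoxd12 was higher and Hoxc12 was lower. Each other group with a called gene had 1 called direction only. Hoxb2, Hoxb3 and Hoxb4 were lower in groups 2, 3 and 4, and Hoxb6 and Hoxc6 were lower in group 6. Hoxa7, Hoxd8 and Hoxd13 were higher in groups 7, 8 and 13.

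Along the axis, none of the 11 tested genes of paralog groups 1 to 5 was called higher and 3, all of them HoxB genes, were called lower (median log2 change -0.14), where 30.0% of all tested genes were higher and 29.1% lower. In groups 6 to 8, 2 of 8 were higher and 2 lower (median 0.13), and in groups 9 to 13, 8 of 15 were higher and 4 lower (median 0.26). These bands differ in which clusters they hold, so axis position and cluster cannot be told apart in the band counts. Within each of groups 9 to 12, where position is shared, called HoxA and HoxD genes were higher and called HoxB and HoxC genes were lower. The correlation across genes between log2 change and paralog number, as a description, was 0.60 (Spearman) in HoxA over 11 genes and 0.55 in HoxB over 8. It was -0.37 in HoxC over 9 and -0.03 in HoxD over 6. Genes of a cluster share enhancers and libraries and are not independent.

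Levels were compared between genes per kilobase of exon. At P6 the order began with Hoxd13 at 15.8 CPM per kb, Hoxb9 at 13.0, Hoxa10 at 10.9, Hoxc6 at 10.5 and Hoxa5 at 10.0 CPM per kb. At P1 it began with Hoxb9 at 19.4 CPM per kb, Hoxd13 at 13.1, Hoxc6 at 12.3, Hoxa5 at 9.24 and Hoxc8 at 8.15 CPM per kb. The 5 at the top held genes of all 4 clusters in each passage. The order by CPM per kb and by the deposited FPKM had a Spearman correlation of 0.998 across the 39 genes. Both measures scale reads of the same libraries by gene length, so this is no independent check of the order.

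**Figure D3:**
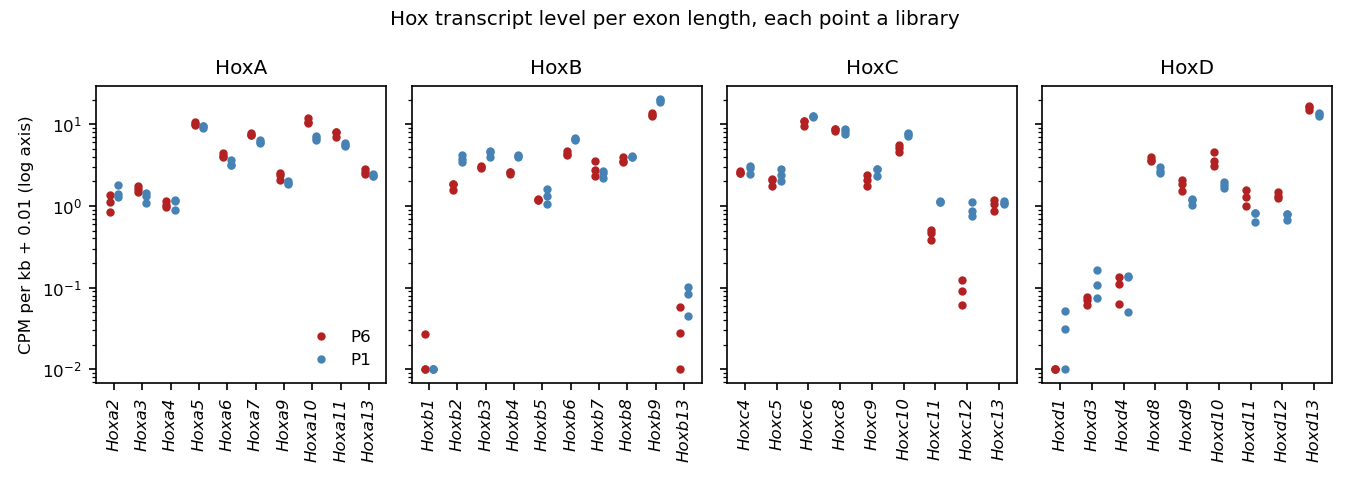
Hox transcript level in CPM per kb of exon plus 0.01 on a log axis, 1 point per library, P6 left of P1 for each gene shown, in the order of paralog number within each cluster. Hoxd13 and Hoxb9 reach the highest levels, and Hoxb1, Hoxb13, Hoxd1, Hoxd3 and Hoxd4 lie near the floor.

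By share of the summed Hox level per kilobase, HoxD gave 19.2%, 19.3% and 20.0% at P6 with α-amyrin, β-amyrin and vehicle, against 14.1%, 14.2% and 13.9% at P1. HoxA gave 34.2%, 35.6% and 35.6% at P6, against 27.5%, 27.9% and 27.6% at P1. HoxB gave 23.2%, 22.5% and 22.5% at P6, against 30.8%, 31.5% and 32.5% at P1. For each of these clusters the libraries of a passage lay close together and the passages did not overlap. HoxC gave 23.3%, 22.7% and 21.9% at P6, against 27.6%, 26.4% and 26.0% at P1, again without overlap.

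**Figure D4:**
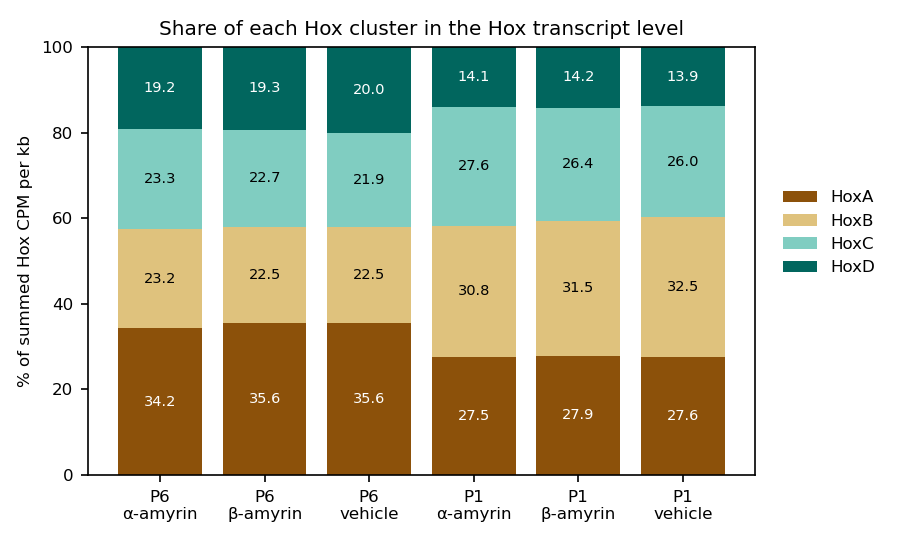
Share of each cluster in the summed Hox CPM per kb, in percent, for each library, P6 left of P1. HoxA and HoxD take larger shares in the 3 P6 libraries and HoxB and HoxC smaller ones.

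Transcripts that lie inside the clusters without being Hox genes, mostly antisense and other non-coding RNAs, were few. Of 46 such rows 14 were tested. In HoxA 4 of 8 were higher and none lower: Hoxaas3, Hoxa11os, 5730596B20Rik (0.92 ± 0.19 SE) and Gm29430 (0.84 ± 0.28 SE). In HoxB 2 of 4 were lower and none higher, Hoxb3os and Gm53 (-0.29 ± 0.08 SE). Neither of the 2 tested rows in HoxD, Hoxd3os1 and Haglr, was called, and no HoxC row was tested. Hoxd3os1 had a log2 change of 0.03 ± 0.35 SE. Haglr had -1.52 ± 0.65 SE (edgeR adjusted p = 0.0812), opposite in sign to the tested HoxD genes. It had 0, 4 and 9 counts at P6 with α-amyrin, β-amyrin and vehicle, against 14, 15 and 13 counts at P1. Over all tested genes 30.0% were called higher and 29.1% lower, or 59.2% in either direction. Of these 6 called rows, each took the direction of the called Hox genes of its cluster. Hoxaas3, Hoxa11os and Hoxb3os are antisense to called Hox genes, and reads of such pairs may be mixed, so their shared direction is no separate observation.

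The 3 nearest tested protein-coding genes on each side of each cluster were called higher for 10 of 24 and lower for 9, with a median log2 change of -0.04. Many were far off, with distances from 8.75 kb (Evx2) to 910 kb (Nfe2l2). In the HoxD set Evx2, Mtx2 and Lnpk lay 8.75 kb, 60.7 kb and 88.9 kb away. Its other members, Atp5g3, Hnrnpa3 and Nfe2l2, lay 757 kb, 894 kb and 910 kb away. Over all tested genes 30.0% were called higher and 29.1% lower. By cluster the counts cover only 6 genes each. Beside HoxA 4 of 6 were higher and 1 lower, with a median of 0.30, against 0.26 over the HoxA genes themselves. Beside HoxB 2 of 6 were higher and 2 lower (median -0.04), and beside HoxC 2 were higher and 3 lower (median -0.20). Beside HoxD 2 were higher and 3 lower (median -0.24), against a median of 0.72 over the tested HoxD genes. Next to HoxD, Evx2, a homeobox gene beside Hoxd13 that shares its limb enhancers, had 1.86 CPM, 1.83 CPM and 2.07 CPM at P6 with α-amyrin, β-amyrin and vehicle, against 1.53 CPM, 1.01 CPM and 0.652 CPM at P1. It was higher at P6 (0.89 ± 0.30 SE, edgeR adjusted p = 0.0388). The next gene, Lnpk, was lower (-0.42 ± 0.09 SE, edgeR adjusted p = 0.00682), and Mtx2, on the other side of the cluster, was not called (-0.12). Beside HoxA, Skap2, an adaptor protein of blood and other cells, was higher (1.32 ± 0.05 SE, edgeR adjusted p = 5.2e-06).

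Among the TALE cofactors, 1 of 9 was higher at P6 and 5 were lower, with a median log2 change of -0.25. Over all tested genes 30.0% were higher and 29.1% lower, or 59.2% called in either direction. Meis1 had 16.5 CPM, 15.4 CPM and 19.8 CPM at P6 with α-amyrin, β-amyrin and vehicle, against 33.8 CPM, 30.2 CPM and 29.0 CPM at P1. Meis2, like Meis1 a marker of the proximal limb, had 44.8 CPM, 47.5 CPM and 47.0 CPM at P6, against 77.5 CPM, 67.7 CPM and 66.7 CPM at P1. Both were lower without overlap, by log2 changes of -0.85 and -0.60 (edgeR adjusted p of 0.000448 and 0.000366). Pknox2 fell by 1.10 on the log2 scale and Pbx3 by 0.25. Meis3 rose (0.30), and Pbx2, Pbx4 and Pknox1 were not called (0.12, 0.58 and -0.19).

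Among 36 regulators of Hox clusters (Polycomb and Trithorax subunits, retinoic acid receptors, Cdx genes and others), 33 were tested, 9 were higher and 18 lower, with a median of -0.27, against 30.0% of all tested genes higher and 29.1% lower. Ezh2, the Polycomb methyltransferase of dividing cells, had 19.0 CPM, 17.0 CPM and 16.6 CPM at P6 with α-amyrin, β-amyrin and vehicle, against 39.9 CPM, 41.2 CPM and 41.5 CPM at P1. Ezh1, its relative of non-dividing cells, had 30.1 CPM, 25.0 CPM and 28.7 CPM at P6, against 12.8 CPM, 12.5 CPM and 14.2 CPM at P1. The pair thus moved in opposite directions without overlap (log2 changes of -1.22 and 1.08, edgeR adjusted p of 2.26e-05 and 4.89e-05). Rarb, a retinoic acid receptor, fell by 1.29 and Hmga2, a chromatin protein of embryonic cells, by 1.22. A link between these changes and those of the Hox genes was not tested.

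Other regional genes changed in both directions. Of 38 limb genes 32 were tested, 7 rose and 19 fell (median -0.40), against 30.0% of all tested genes that rose and 29.1% that fell. Grem1, a BMP antagonist of limb mesenchyme, rose (1.85), while the ephrin receptor Epha3 (-1.78) and the transcription factor genes Tbx2 (-1.69) and Hand2 (-1.49) fell. Of the genes that tell limbs apart, the forelimb gene Tbx5 had 15.9 CPM, 18.2 CPM and 19.2 CPM at P6 with α-amyrin, β-amyrin and vehicle, against 15.0 CPM, 12.4 CPM and 12.9 CPM at P1. The hindlimb gene Pitx1 had 23.3 CPM, 25.3 CPM and 26.1 CPM at P6, against 16.6 CPM, 15.6 CPM and 14.5 CPM at P1. Both were higher without overlap (log2 changes of 0.41 and 0.68, edgeR adjusted p of 0.0191 and 0.000608). Tbx4, the other hindlimb gene, was not called (0.18, edgeR adjusted p = 0.0938).

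For the 2 lists that follow, the shares over all tested genes were 30.0% that rose and 29.1% that fell. Of 25 trunk and somite genes 22 were tested, 6 rose and 9 fell (median -0.13). Zic1, a gene of the dorsal neural tube and dorsal somite, had 2.50 CPM, 2.94 CPM and 1.99 CPM at P6 with α-amyrin, β-amyrin and vehicle, against 24.2 CPM, 23.4 CPM and 22.3 CPM at P1 (log2 change -3.23 ± 0.12 SE, edgeR adjusted p = 5e-06). Tbx18 (0.55) and Foxc1 (0.34) rose. Of 14 genes of the head, a region formed largely without Hox expression, 8 were tested, 1 rose and 6 fell (median -1.08). Foxd1 (-0.83) and Alx1 (-0.41) were among those that fell.

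Many markers of cell types other than fibroblasts were called between the passages in the same libraries. Over all tested genes 30.0% rose and 29.1% fell, or 59.2% called in either direction. The endothelial, epithelial and neural counts below rest on few tested genes. All 15 macrophage markers rose (median 4.12). Their summed levels were 5241 CPM, 3728 CPM and 5182 CPM at P6 with α-amyrin, β-amyrin and vehicle, against 289 CPM, 43.4 CPM and 341 CPM at P1. The β-amyrin library was the lowest at each passage, so the libraries of a passage differed in these markers. All 10 mesothelial markers fell (median -5.46), with 12.5 to 14.5 CPM at P6 and 230 to 288 CPM at P1. Of 12 skeletal muscle markers 2 were at 0 throughout, 7 were tested and 6 fell (3.74 to 4.78 CPM at P6 and 62.1 to 72.1 CPM at P1). Of 10 cartilage markers 9 were tested and 8 fell (518 to 752 CPM at P6 and 1109 to 1304 CPM at P1). Of 8 endothelial markers 1 was at 0, 4 were tested, 1 rose and 3 fell (13.0 to 29.5 CPM at P6 and 32.6 to 33.8 CPM at P1). Of 7 epithelial markers 4 were tested and 3 fell (0.465 to 1.47 CPM at P6 and 15.2 to 19.1 CPM at P1). Of 10 neural and glial markers 6 were tested, 1 rose and 3 fell (67.4 to 76.5 CPM at P6 and 82.1 to 86.4 CPM at P1). The fibroblast markers that check the label were abundant in every library, with 51087 to 56820 CPM at P6 and 36376 to 43716 CPM at P1. Of these 13, 2 rose and 9 fell (median -0.52), so the higher sum at P6 does not stand for most of the markers. The sum is only a rough check of the label. The part of these shifts in the Hox differences was not tested.

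Neither amyrin moved a Hox gene past the threshold. The amyrins are plant triterpene alcohols, and the α and β isomers differ in where a methyl group sits on the last ring. With both passages in the fit, edgeR called 0 of 34 Hox genes for α-amyrin against vehicle and 0 for β-amyrin against vehicle, where 0.0295% and 0.00590% of all genes were called. DESeq2 and limma on FPKM gave 0 as well. At an unadjusted p below 0.05 there was 1 Hox gene for α-amyrin and 0 for β-amyrin, against 11.8% and 10.3% of all genes. The log2 changes ran from -0.45 to 0.48 (median -0.09) with α-amyrin and from -0.33 to 0.29 (median -0.02) with β-amyrin. The 1 gene was Hoxd10, which was lower in the α-amyrin library than in the vehicle library at each passage (-0.43 ± 0.16 SE, edgeR unadjusted p = 0.0341, adjusted p = 0.378).

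At the matched dose and time, α-amyrin minus β-amyrin gave 0 calls of 34 Hox genes with edgeR, DESeq2 and limma, against 0.0590% of all genes with edgeR. The 95% intervals of the difference had a median half-width of 0.34 on the log2 scale, and 32 of 34 lay within a change of 2-fold either way. A difference inside the interval of a gene could not be told from none in these libraries. Hoxb7 (0.44, 95% interval 0.02 to 0.87) and Hoxd11 (-0.50, 95% interval -0.91 to -0.09) had an unadjusted p below 0.05, with edgeR adjusted p of 0.52 and 0.481, and 9.21% of all genes had one. Hoxb7 was higher in the α-amyrin library than in the β-amyrin library at each passage, and Hoxd11 was lower.

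A test of whether the passage difference changed with amyrin, in which α- and β-amyrin counted as 2 samples of 1 amyrin group at each passage, called 0 Hox genes and 0% of all genes. No Hox gene had an unadjusted p below 0.05 in it, against 2.66% of all genes, and DESeq2 and limma called none. In pairs of single libraries, which have no replicate check, the ratio of α-amyrin to vehicle was above 1 for 4 of 34 Hox genes at P6 and for 19 of 34 at P1, against 53.4% and 49.3% of all genes. The median Hox log2 ratio in these pairs was -0.17 at P6 and 0.03 at P1. For β-amyrin over vehicle it was above 1 for 10 of 34 at P6 and for 21 of 34 at P1, against 51.7% and 50.2% of all genes. The pairs of a passage share the vehicle library. No Hox gene reached 2-fold in any pair of an amyrin with vehicle, where 2.24% to 3.97% of all tested genes did, and 5 of 34 did between the vehicle libraries of P6 and P1, where 17.4% of all tested genes did. The Hox counts were near those shares.

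**Figure D5:**
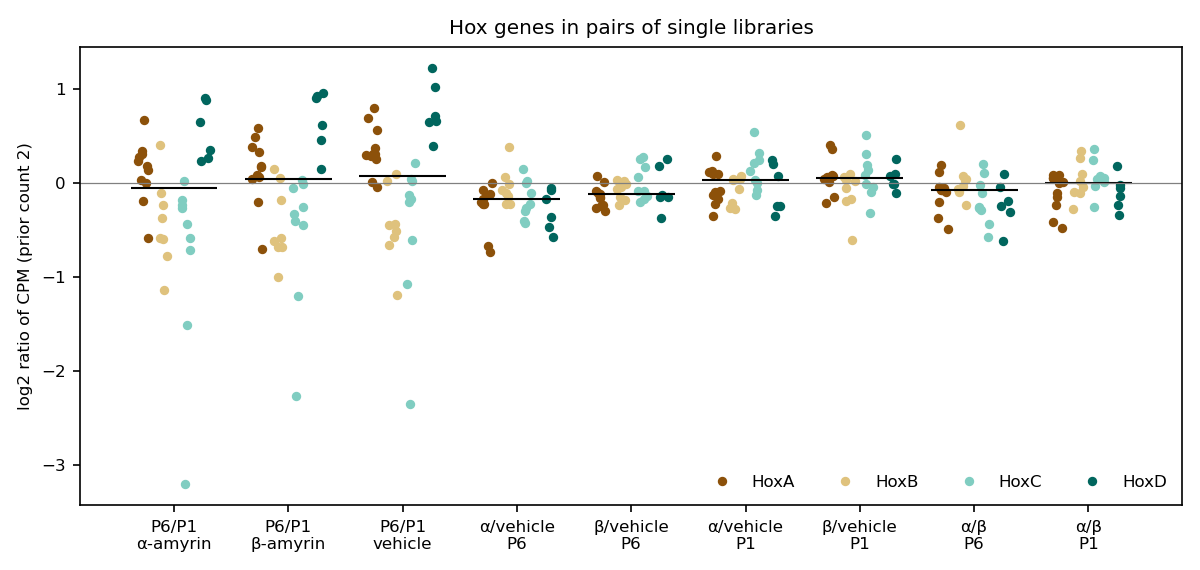
Log2 ratio of CPM (prior count 2) of the 34 tested Hox genes in 9 pairs of single libraries, coloured by cluster, with a line at the median. The P6 over P1 pairs spread from -3.20 to 1.22, and every pair of an amyrin with vehicle at the same passage stays between -0.74 and 0.54.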

How the data were processed

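RNA-seq libraries of MEFs at P6 and P1 were analysed, 1 for each passage and treatment. Per the submitters' processing notes, the build was mm10 and the tools included HISAT2 2.1.0 as aligner, featureCounts 1.6.3, Trimmomatic 0.38, SAMtools 1.9 and FastQC 0.11.7. Their settings, and any use of strand by the counter, are not given in the sources used. Per the labels' protocols the kit was directional. Raw counts, whole numbers for 55487 rows, were deposited by the authors. The authors also deposited FPKM values, which entered only as alternatives and for comparison with the levels per kilobase.

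Counts were scaled by TMM and tested with edgeR 4.0.16 in R 4.3.3 (estimateDisp, glmQLFit, glmQLFTest), with treatment and passage as additive terms. Genes passed filterByExpr with passage as the group, and Benjamini-Hochberg adjustment ran over all 16962. The common biological coefficient of variation was 7.72% and the prior degrees of freedom 4.83. SE values come from the test statistic. Alternatives used DESeq2 1.42.0, limma 3.58.1 on log2(FPKM + 1) and log2(FPKM + 0.1), other scalings and filters, and leaving out each library. Exon overlap, 3′ untranslated regions and sites came from GENCODE vM21, whose Hox coordinates equal the deposited ones, and start windows and microRNAs from RefSeq (GRCm38.p6).

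Members and gene lists were chosen with earlier results of these data known. Per-library values are given for members with at least 5 CPM in at least 1 library. From each other list up to 4 called members with the largest changes and a mean of at least 5 CPM were named, and Pbx and Meis genes, Tbx5, Tbx4 and Pitx1 in any case. A few genes are counted but not reported singly here. For the cell type lists only counts and sums are printed.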

Additional observations from a re-analysis of the deposited data

How the results depend on the processing

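The counts of Hox genes called between P6 and P1, 10 higher and 9 lower, were 10 and 9 with size factors of the DESeq2 kind or with library totals alone, 7 and 8 with DESeq2, and 10 and 10 with no filter on low counts. They were 10 and 8 with a stricter filter, 9 and 9 with limma on filtered FPKM at either pseudocount, and 9 and 9 with passage as the single term. Limma on log2(FPKM + 1) with no filter gave 1 higher and 5 lower, over 55487 rows, of which 3743 were called. Over all genes the main fit called 10034 of 16962 and DESeq2 8267 of 16962. DESeq2 and the unfiltered limma fit thus called fewer genes of all kinds, and fewer Hox genes with them. With each library left out in turn the counts ran from 5 to 9 higher and from 8 to 10 lower, and 5 was the number without the P6 vehicle or the P1 vehicle library. Calls over all genes ran from 8476 to 9269 in these fits, below the main fit as well. Leaving out a library also leaves its partner of the same treatment with no weight on passage. Among the members reported singly, the sign turned for 3 that were not called. With each library left out in turn Hoxc8 ran from -0.010 to 0.10 and Hoxb5 from -0.30 to 0.012 on the log2 scale, with the turned sign without the P6 vehicle or the P1 vehicle library. Hoxa4 ran from -0.099 to 0.064, turned without the P6 or the P1 β-amyrin library. The cause was not tested. No alternative that was run gave a call for α-amyrin, β-amyrin, their difference or passage by amyrin, and the last could not be fitted without either vehicle library. Among members with few counts, Hoxc11, Hoxc12 and the 5 untested genes, depth limits what can be told. No paired analysis was possible because every condition had 1 library and the labels give no number that ties libraries together beyond treatment, which is already a term of the fit.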
